A study of Mus musculus with 6 samples.

Results

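Transcripts of 10 genes of transforming growth factor beta (TGF beta) signalling were compared between activated CD4 T cells of mice lacking the microRNA miR-155 (KO) and of wild-type mice (WT). The genes are the ligand Tgfb1, the receptors Tgfbr1 and Tgfbr2, the signal carriers Smad2, Smad3, Smad4 and Smad5, the inhibitor Smad7, and the corepressors Ski and Skil. They were taken by gene symbol from the annotation of the array, which gave 19 of the 22626 probe sets that are not controls, and 10 of 12393 genes. A probe set is a group of short probes whose signals are summarised into 1 value for a transcript. Both genotypes were of strain C57BL/6, and the KO mice are those the series description credits to Thai et al. The miR-155 deletion is in the mouse itself, so every cell type of the KO mice carried it before the T cells were taken. CD4 T cells were drawn from spleen and lymph nodes with magnetic beads and cultured for 3 days under stimulation by CD3 and CD28 antibodies (1 µg/mL) in 20 U/mL interleukin 2. Nothing in the labels says that TGF beta was added. There were 3 arrays per genotype, each from its own mouse per the series description. Neither the labels nor the series description gives the age or sex of the mice.

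TGF beta is secreted in a latent form and, once released, binds the type II receptor (Tgfbr2), which then phosphorylates the type I receptor (Tgfbr1). The type I receptor phosphorylates Smad2 and Smad3, which pair with the shared partner Smad4 and enter the nucleus. Smad5 carries signals of the related bone morphogenetic proteins, Smad7 blocks the receptors and is itself induced by the pathway, and Ski and Skil (also called SnoN) hold Smad complexes in a repressed state. In T cells the pathway restrains proliferation and effector function and takes part in the formation of regulatory and Th17 cells. Smad2 and Smad5 have been reported as targets of miR-155, which pairs with transcripts through its seed. The mature strand is shown because it is what the KO cells lack, with the seed, bases 2 to 8, in capitals (RefSeq, assembly GRCm38.p6, chr16:84714143-84714165, plus strand).

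mmu-miR-155-5p: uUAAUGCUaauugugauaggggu

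The arrays were checked first. Mir155hg, the host transcript of miR-155, measured 3.51, 3.89 and 4.45 in KO and 7.69, 6.59 and 8.21 in WT. Each array thus lay on the side of its label, although the difference of -3.55 was not called (limma adjusted p = 0.545). Of the markers of the labelled cell type, Cd3d lay between 12.82 and 13.43 and Cd4 between 8.83 and 9.25 on the 6 arrays. Of the CD8 T cell markers, Cd8b1 lay between 7.23 and 7.73 and Cd8a between 5.69 and 6.10, and a share of CD8 T cells was not tested. Of 7 CD4 T cell markers, 2 (Cd28 and Zbtb7b) were higher in KO with an unadjusted limma p under 0.05 (7.43% of all genes). None of 4 neutrophil markers was as bright as the genes tested. For 6 macrophage and monocyte markers the log2 of the summed signal was 7.61 to 7.95 in KO and 7.45 to 7.70 in WT. Only 3 of them were bright enough to be tested, so dim signal makes up part of the sum. The log2 of the summed signal of 5 B cell markers was at least 8.35 in KO and 8.28 in WT. It was highest in a WT array, at 9.25. For 5 platelet markers this measure was 7.77 to 7.81 in KO and 7.62 to 7.72 in WT, with the defining Pf4 and Ppbp below the range tested. The part of these lists in the Tgfb1 values was not tested. On both replicate 3 arrays the female transcript Xist (12.59 in KO and 12.64 in WT) and the Y-linked Eif2s3y (10.05 and 10.21) were high together, so 1 mouse per array is not certain there. Replicate 1 of both genotypes had high Xist and low Eif2s3y (3.50 and 3.44), and replicate 2 the reverse. KO replicate 1 stood apart from the other arrays in its state: its mean deviation from the 6-array mean was -0.86 log2 units over 9 cell cycle genes, against 0.02 to 0.35 on the other 5 arrays, and 0.78 over 6 hypoxia response genes, against -0.24 to 0.05. The cell cycle genes also had the lower mean in KO in 9 of 9 cases, with all arrays (median difference -0.49) and without KO replicate 1 (-0.23). The other KO arrays scored 0.02 and 0.04 and the WT arrays 0.22 to 0.35, and the part of this in the values below was not tested.

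None of the 10 genes passed a test between KO and WT, and their differences were mostly within the spread between mice of 1 genotype. All values are log2 expression after robust multi-array averaging (RMA), and a difference is KO minus WT, so that 1 unit is a doubling. For each gene the brightest of its probe sets was taken, and all 10 genes were bright enough to be tested among 9295 genes. With limma, a linear model that shares variance information across genes, 0 of the 10 had an adjusted p under 0.05 (Benjamini-Hochberg over the 9295 genes, where 0 genes, or 0%, passed). Their adjusted p ran from 0.675 to 0.936. At an unadjusted limma p under 0.05 there were likewise 0 of 10, against 691 genes or 7.43% of all tested, and the 2 genotypes lay fully apart in 0 of 10, against 12.8% of all. Of the 10, 6 had the higher mean in KO, where 49.2% of all genes did. Their median difference was 0.08 (median of all genes -0.0036), and their median absolute difference was 0.17 against 0.16 for all genes. In size, the differences in this pathway core were close to those of the median gene tested. For 9 of the 10 the difference was smaller than the larger of the SDs of the 2 genotypes.

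**Figure D1:**
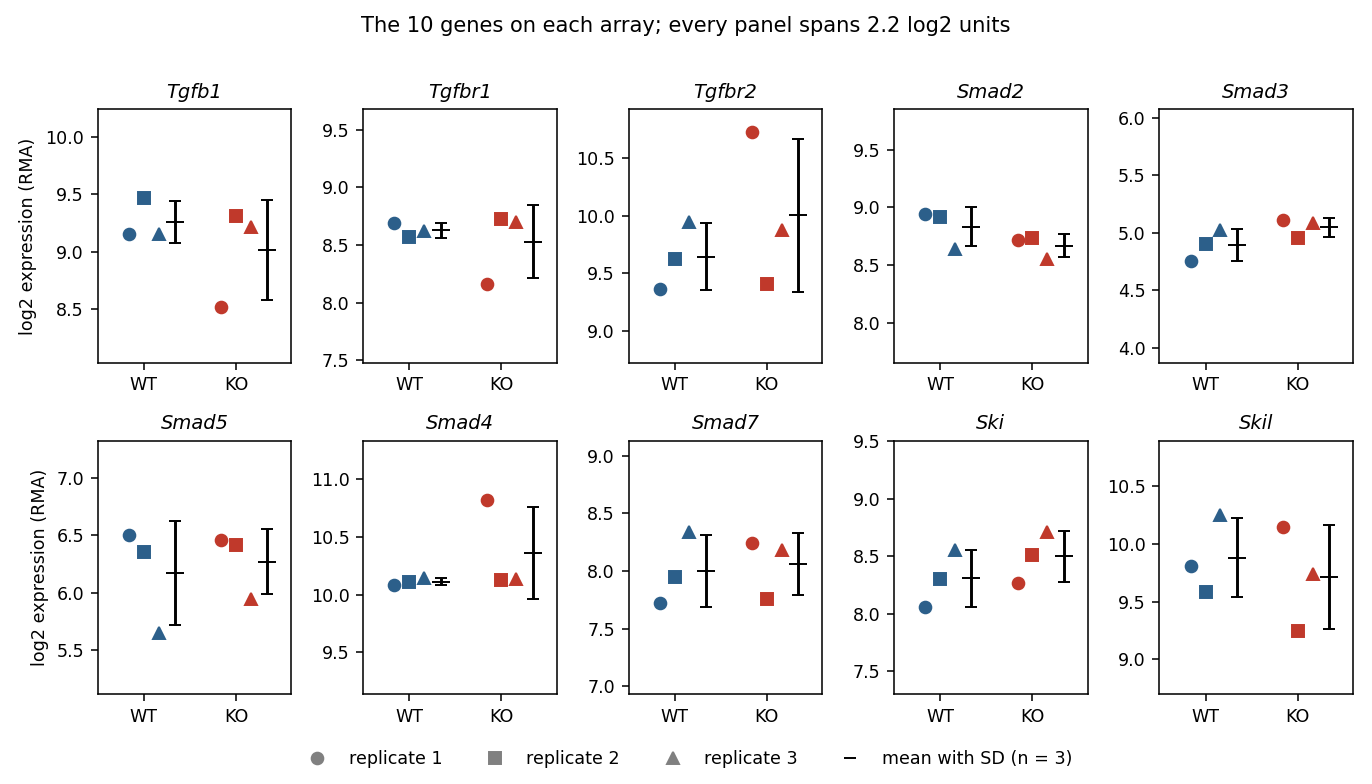
Log2 expression (RMA) of the brightest probe set of each of the 10 genes on every array, WT in blue and KO in red, with the replicate number given by the symbol and the mean with SD (n = 3) in black. KO and WT overlap in all 10 panels, and KO replicate 1 (red circle) lies apart from the other 5 arrays in Tgfb1, Tgfbr1, Tgfbr2 and Smad4.

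The ligand gene Tgfb1, which encodes the main TGF beta of immune cells, measured 8.52, 9.31 and 9.21 in KO and 9.15, 9.47 and 9.16 in WT, in the order of replicates 1 to 3 as for all genes here. KO replicate 1 was the lowest of the 6, 0.63 below the next, and the other KO arrays lay within the WT range. The means were 9.01 ± 0.43 and 9.26 ± 0.18 (SD, n = 3), a difference of -0.24 ± 0.23 (SE; 95% interval -0.80 to 0.31, limma adjusted p = 0.723). Without KO replicate 1 the difference was 0.0040, so the lower KO mean rested on that array. In such bulk RNA, fewer cells that express a gene and less RNA per cell cannot be told apart, here and for the genes that follow.

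The receptor genes also depended on KO replicate 1, which was the lowest array for Tgfbr1 and the highest for Tgfbr2. Tgfbr1, the kinase that phosphorylates Smad2 and Smad3, measured 8.16, 8.72 and 8.70 in KO and 8.69, 8.57 and 8.62 in WT. The WT arrays lay within a narrow band (8.63 ± 0.06, SD, n = 3), and KO replicate 1 lay 0.41 below the lowest of the other 5 arrays. The difference was -0.10 ± 0.18 (SE; 95% interval -0.52 to 0.32, limma adjusted p = 0.853) with all arrays and 0.09 without KO replicate 1. Its other probe sets, 1420893_a_at and 1420894_at, had KO means of 3.58 and 3.86, under 4.72, which is where the range tested begins, and are too dim to show a difference.

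Tgfbr2, the ligand-binding receptor, measured 10.72, 9.41 and 9.88 in KO and 9.37, 9.62 and 9.94 in WT. KO replicate 1 was 0.78 above the highest of the other arrays, among which the genotypes were mixed. Its difference of 0.36 ± 0.34 (SE; 95% interval -0.46 to 1.18, limma adjusted p = 0.723) was the largest of the 10 genes in size, and without KO replicate 1 it was -0.0025. A dimmer probe set, 1425444_a_at, measured 7.98, 6.02 and 6.69 in KO and 6.08, 5.87 and 6.51 in WT. It had the same shape, with a difference of 0.74 ± 0.48 (SE; adjusted p = 0.714 over all probe sets, limma), and 0.20 without KO replicate 1. The remaining Tgfbr2 probe set, 1422019_at, had a KO mean of 2.94, far below the brightness range tested. On KO replicate 1 the ligand and type I receptor transcripts were therefore the lowest of the 6 arrays and the type II receptor transcript the highest. That array also had the lowest cell cycle and the highest hypoxia score, and their part in these values was not tested.

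Among the Smads that the TGF beta receptors phosphorylate, Smad2 had the lower and Smad3 the higher mean in KO, neither past the test. Smad2 measured 8.71, 8.74 and 8.55 in KO and 8.94, 8.92 and 8.64 in WT. The highest KO array lay above the lowest WT array by less than 0.1, so the groups overlapped only through WT replicate 3. The means were 8.67 ± 0.10 and 8.83 ± 0.17 (SD, n = 3), and the difference of -0.17 ± 0.13 (SE; 95% interval -0.48 to 0.15, limma adjusted p = 0.678; exact two-sided permutation p = 0.3) was negative with any 1 array left out (-0.26 to -0.11). Only a fit with estimated array weights called Smad2 (-0.33, limma adjusted p = 0.020), and it rested mostly on KO replicate 3 and WT replicate 2.

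Smad3 measured 5.11, 4.96 and 5.08 in KO and 4.75, 4.90 and 5.03 in WT. It was the 1 gene of the 10 whose difference, 0.16 ± 0.12 (SE; 95% interval -0.14 to 0.45, limma adjusted p = 0.675; exact two-sided permutation p = 0.2), exceeded the larger group SD (0.14), and it had the smallest unadjusted p of the 10 (limma p = 0.241). KO replicates 1 and 3 lay above all WT arrays and KO replicate 2 between WT replicates 2 and 3. Its dimmer probe set, 1450472_s_at, differed by 0.18 ± 0.13 (SE), in the same direction. Left out 1 at a time, the arrays gave 0.087 to 0.22 for the brighter one, the lowest without WT replicate 1. Its means, 5.05 and 4.89, lie just above 4.72, the low end of the range tested, and those of the dimmer one (4.72 and 4.54) lie at that end and below it. RMA compresses differences there, so the sizes may be understated. The 4 genes whose values, each centred on its own mean, followed those of Smad3 most closely over the 6 arrays were Frmd6, Sst, Dock6 and Ccdc92. Their root mean square distance from Smad3 was 0.022 to 0.028 log2 units, where that of Smad3 from its own mean was 0.12 and the median distance over 9294 genes was 0.23. They had differences of 0.12, 0.14, 0.15 and 0.13. The likeness is one of small movements over 6 points, and all 4 genes were brighter than Smad3, with KO means from 5.91 for Sst to 9.06 for Frmd6.

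Smad4, the partner shared by all signalling Smads, measured 10.82, 10.13 and 10.14 in KO and 10.08, 10.11 and 10.14 in WT. The WT arrays hardly varied (10.11 ± 0.03, SD, n = 3), KO replicates 2 and 3 lay among them, and KO replicate 1 lay 0.68 above the highest. The difference was 0.25 ± 0.20 (SE; 95% interval -0.24 to 0.74, limma adjusted p = 0.682), and 0.023 without KO replicate 1. The other Smad4 probe sets, 1422485_at and 1422486_a_at, differed by 0.20 and 0.23. For 1422485_at the difference without KO replicate 1 was 0.036. For 1422486_a_at it was 0.071 without WT replicate 1, which lay lowest there (9.29).

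Smad5 overlapped between the genotypes on its brighter probe set and lay apart on the dimmer one. On the brightest, 1451873_a_at, it measured 6.46, 6.41 and 5.94 in KO and 6.50, 6.36 and 5.65 in WT. Replicate 3 was the lowest in both genotypes and the other 4 arrays lay between 6.36 and 6.50. The difference was 0.10 ± 0.26 (SE; 95% interval -0.52 to 0.72, limma adjusted p = 0.901), and it was -0.16 without WT replicate 3. On the dimmer probe set, 1421047_at, Smad5 measured 6.34, 6.21 and 6.29 in KO and 5.65, 5.62 and 6.08 in WT. Here all KO arrays lay above all WT arrays, and the KO arrays were close together (6.28 ± 0.06 against 5.79 ± 0.26, SD, n = 3). The difference was 0.50 ± 0.15 (SE; 95% interval 0.14 to 0.85), with an unadjusted limma p of 0.013, an adjusted p of 0.705 over all probe sets, and an exact two-sided permutation p of 0.1, the smallest that 3 against 3 arrays can give.

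This was the 1 of 19 probe sets with an unadjusted limma p under 0.05, where 6.55% of all 22626 probe sets had one (3.22% on the higher side), and the 1 of 19 without overlap, against 11.7% of all (5.89% on the higher side). A share of 1 in 19 is near that background. Left out 1 at a time, the arrays gave differences of 0.41 to 0.64 for this probe set, each with an unadjusted p under 0.05 and none with an adjusted one. Of the 19 probe sets, 14 were higher in KO, where 50.4% of all probe sets were, but probe sets of 1 gene read the same RNA and are not independent. The probe sets also ordered the arrays differently, WT replicate 3 being the lowest WT array on the brighter and the highest on the dimmer one. Between the genotypes the 2 probe sets were not shown to differ in their response (difference of the differences 0.39, exact two-sided permutation p = 0.5, a comparison chosen after the values were seen). The same comparison of the 2 brightest probe sets gave 0.38 for Tgfbr2 (exact two-sided permutation p = 0.2). For Skil it gave 0.41 (exact two-sided permutation p = 0.4), so Smad5 did not stand out in this respect. With the mean of both probe sets, Smad5 differed by 0.30 (limma adjusted p = 0.643, unadjusted p under 0.05).

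**Figure D2:**
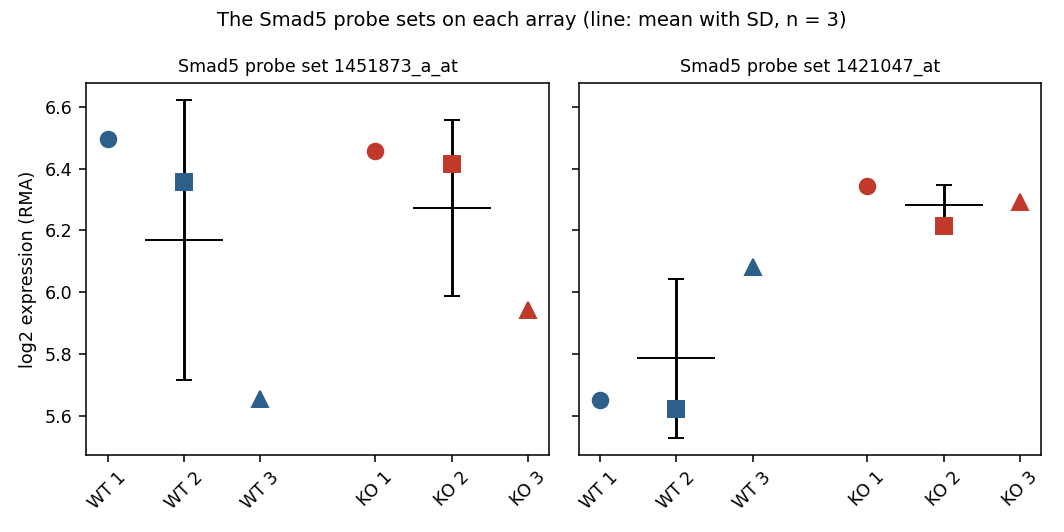
Log2 expression (RMA) of Smad5 on each array by its brighter (left) and dimmer (right) probe set, WT in blue and KO in red, with the mean and SD of each genotype (n = 3) as a black line and bar. The genotypes overlap on 1451873_a_at and are apart on 1421047_at, and the replicate 3 arrays (triangles) are the lowest of their genotype on the left but not on the right.

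The inhibitor and corepressors gave differences on either side of 0. Smad7, the feedback inhibitor, measured 8.24, 7.76 and 8.18 in KO and 7.72, 7.94 and 8.34 in WT. The arrays of the genotypes were interleaved, with a difference of 0.06 ± 0.21 (SE; 95% interval -0.44 to 0.56, limma adjusted p = 0.936), and it turned to -0.033, -0.0026 and -0.082 without KO replicate 1, KO replicate 3 and WT replicate 1. As a transcript that TGF beta signalling induces, Smad7 is often used to read the activity of the pathway. Here the 95% interval of its difference ran from -0.44 to 0.56 with 3 arrays per genotype, and the activity of the pathway itself was not measured.

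Ski measured 8.27, 8.51 and 8.71 in KO and 8.06, 8.30 and 8.56 in WT. In each genotype replicate 1 was the lowest and replicate 3 the highest. The difference was 0.19 ± 0.18 (SE; 95% interval -0.24 to 0.62, limma adjusted p = 0.718), and it lay between 0.068 and 0.32 with any 1 array left out, the lowest without WT replicate 1. The fit with array weights called Ski too (0.38, limma adjusted p = 0.024). With the replicate number as a block, Ski had an unadjusted limma p of 0.116 (adjusted p = 0.487), against 0.324 without the block. Skil measured 10.15, 9.25 and 9.74 in KO and 9.81, 9.58 and 10.25 in WT, a difference of -0.17 ± 0.27 (SE; 95% interval -0.82 to 0.48, limma adjusted p = 0.836). Its dimmer probe set, 1422054_a_at, differed by 0.25 ± 0.26 (SE), in the opposite direction, and by 0.00014 without KO replicate 1. The direction for Skil was not settled, and the difference on the brighter probe set also turned to 0.063 without KO replicate 2 and to 0.016 without WT replicate 3.

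**Figure D3:**
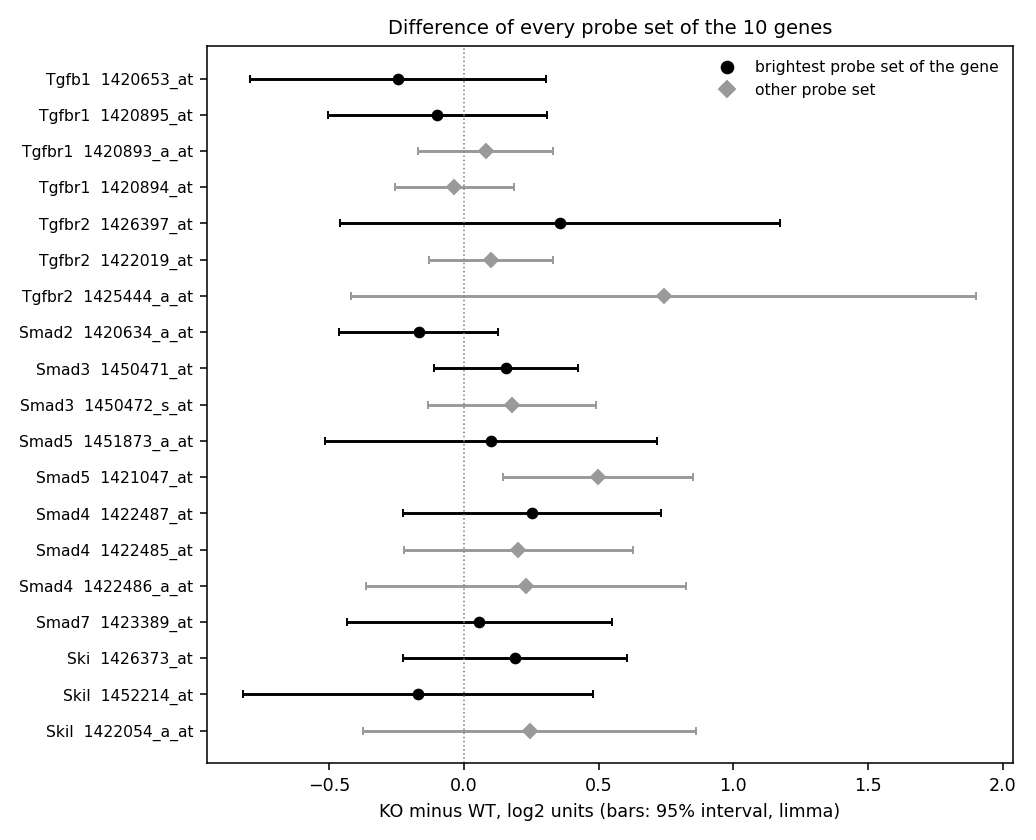
Difference between KO and WT in log2 units, with the 95% interval of the limma fit over all probe sets, for each of the 19 probe sets, with the brightest of each gene in black and the others in grey. The interval spans 0 in all but 1 of the 19 probe sets, the exception being Smad5 1421047_at (0.14 to 0.85).

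**Figure D4:**
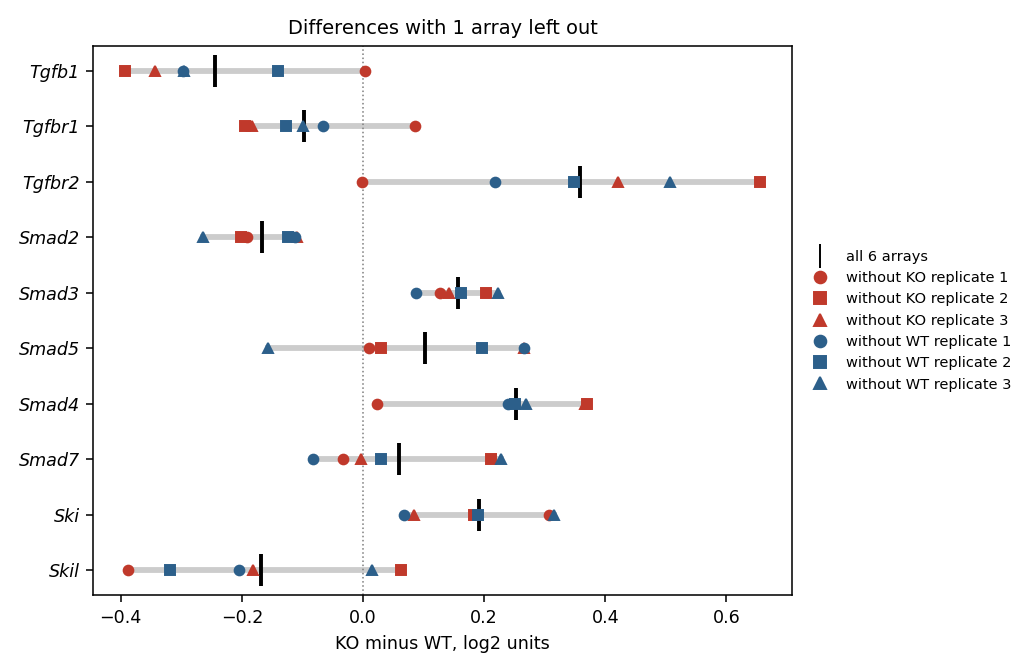
Difference between KO and WT in log2 units for each of the 10 genes with all 6 arrays (black bar) and with 1 array left out (symbols; red for a KO array, blue for a WT array). Without KO replicate 1 (red circles) Tgfb1, Tgfbr2 and Smad4 move to between -0.0025 and 0.023, while Smad2, Smad3, Smad4 and Ski keep their direction throughout.

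The wider pathway was read from lists of genes by role, and none of their members had a limma adjusted p under 0.05. The lists were chosen with earlier results of these data known. The counts that follow are to be read against the shares over all genes tested, 49.2% with the higher mean in KO, 7.43% with an unadjusted p under 0.05 and 12.8% without overlap. Among ligands and proteins that release them, 6 of 7 tested genes were higher in KO, with a median difference of 0.33, where the median of all genes was -0.0036. Inhba, which encodes the activin A subunit, measured 10.33, 8.17 and 9.77 in KO and 7.61, 6.52 and 8.76 in WT. It was the 1 member with an unadjusted limma p under 0.05 (difference 1.79 ± 0.72, SE; limma adjusted p = 0.631). That was lost without KO replicate 1 (1.34), KO replicate 3 (1.62), WT replicate 1 (1.78) or WT replicate 2 (1.24). KO replicate 1 was the highest array for Inhba, and without it 7 of 7 genes of the list were higher, with a median of 0.19.

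All 8 tested receptors of the superfamily outside the 10 genes had the higher mean in KO, but 0 of 8 had an unadjusted limma p under 0.05 and the arrays overlapped in each. With 8 genes, counts of 0 are close to what shares of 7.43% and 12.8% give. The median difference was 0.13. Acvr1, a type I receptor for activins and bone morphogenetic proteins, differed by 0.14 ± 0.11 (SE). Acvrl1, the type I receptor ALK1, measured 9.30, 5.52 and 6.95 in KO and 6.38, 6.24 and 6.52 in WT, and its difference of 0.88 became -0.15 without KO replicate 1. Without that array 5 of the 8 receptors were higher and 3 lower. Of the other Smads only Smad1, which carries bone morphogenetic protein signals, was bright enough to be tested, and differed by -0.14 ± 0.19 (SE), and by 0.0066 without KO replicate 1. Smad6 and Smad9 had KO means of 3.73 and 3.68, below the range tested.

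Regulators and cofactors of Smads were split, 11 of 19 being higher and 8 lower, with a median of 0.0097 and 0 with an unadjusted limma p under 0.05. The smallest p belonged to the deacetylase Hdac1, which differed by -0.36 ± 0.16 (SE; adjusted p = 0.631, limma; -0.23 without KO replicate 1), and to Rnf111, a ubiquitin ligase that degrades Ski and Skil, at 0.42 ± 0.19 (SE; adjusted p = 0.631; 0.25 without WT replicate 1). In the arm of the pathway that does not use Smads, 5 of 7 genes were higher, with a median of 0.17, and of 0.078 without KO replicate 1. Tab2, an adaptor of the kinase Tak1 and a reported target of miR-155, measured 11.41, 11.09 and 11.28 in KO and 10.53, 10.49 and 10.87 in WT. It differed by 0.63 ± 0.15 (SE) and was the 1 member with an unadjusted limma p under 0.05 (limma adjusted p = 0.631). With any 1 array left out Tab2 kept an unadjusted limma p under 0.05 (differences 0.55 to 0.75) but did not pass the adjusted test. The arrays did not overlap for 2 of the 7 genes, Tab2 among them (12.8% of all). Map3k7, which encodes Tak1 itself, differed by -0.23, and by -0.048 without KO replicate 1. Map3k7 was picked with its values in view, outside the rule for named genes.

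Genes that TGF beta is known to induce in T cells had the higher mean in KO in 5 of 7 cases (49.2% of all genes). Their median was 0.30, and 0.22 without KO replicate 1. Of 11 genes listed, 9 were found by symbol, and Foxp3 and Tgfbi among them were too dim to be tested. An unadjusted limma p under 0.05 was found for 2 of the 7 (7.43% of all), and 3 of the 7 had no overlap (12.8% of all). Genes it is known to repress were split, 5 of 11 being higher. Their median was -0.22 (-0.42 without KO replicate 2 and -0.091 without WT replicate 1). Of these 11, 2 higher and 3 lower in KO had an unadjusted limma p under 0.05 (7.43% of all). The arrays did not overlap for 3 higher and 1 lower (12.8% of all). On the induced side Itgae, the integrin alpha E chain, measured 6.27, 6.27 and 6.81 in KO and 5.12, 5.35 and 6.18 in WT. Its difference was 0.90 ± 0.30 (SE; limma adjusted p = 0.631, unadjusted p under 0.05), with all KO arrays above all WT arrays. Junb, an AP-1 subunit, differed by 0.39 ± 0.14 (SE; limma adjusted p = 0.631, unadjusted p under 0.05), also without overlap. Itgae no longer had an unadjusted p under 0.05 without KO replicate 3, WT replicate 1 or WT replicate 2 (0.69 to 0.80), nor did Junb when WT replicate 1 or either of KO replicates 1 and 3 was left out (0.29 to 0.36). On the repressed side the members pointed in opposite directions: the granule genes Gzma and Prf1 were higher by 3.08 and 1.27, and the death ligand gene Fasl and the cytokine gene Ifng differed by -1.33 and -1.17. Each of these 4 had an unadjusted limma p under 0.05 and an adjusted p of 0.631. With any 1 array left out Gzma, Prf1 and Fasl kept an unadjusted p under 0.05, whereas Ifng lost it without KO replicate 1, KO replicate 3, WT replicate 1 or WT replicate 2 (-1.18 to -0.90). Il2, beyond the 4 that the rule names, differed by -1.82, also with an unadjusted limma p under 0.05 (adjusted p = 0.631). That was lost without KO replicate 1, KO replicate 3, WT replicate 1 (difference -1.12) or WT replicate 2. The induced and repressed lists contain genes that many other signals also control. Both were chosen with earlier results of these data known, so their counts are descriptive and give no independent evidence.

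**Figure D5:**
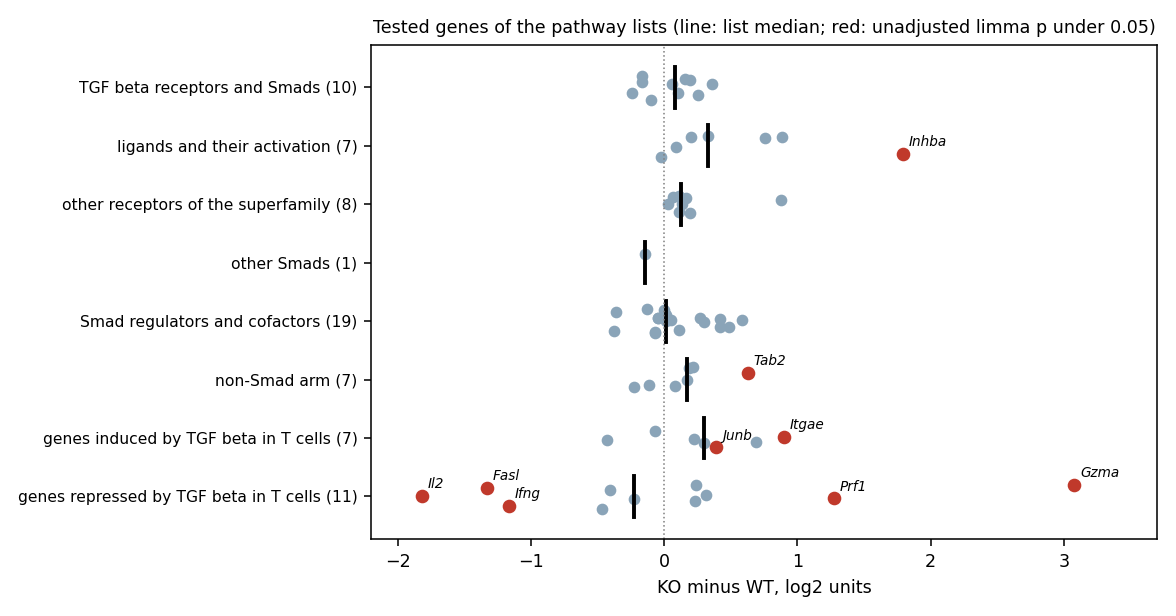
Difference between KO and WT in log2 units for each tested gene of the 10 (top row) and of the 7 lists of the wider pathway, with the number tested in brackets, the list median as a black line, and genes with an unadjusted limma p under 0.05 in red. The 10 genes lie between -0.24 and 0.36, whereas single genes of the ligand, receptor, induced and repressed lists reach beyond 0.8 in size.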

How the data were processed

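Per the submitters' processing notes, the authors made the deposited log2 values with RMA and the affy package (no version stated). This method subtracts background, equalises the arrays' distributions and summarises each probe set. Array medians were 6.45 to 6.49. Precision is limited by the number of arrays. No detection calls were used.

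Gene symbols came from GEO's platform annotation. Of 22626 non-control probe sets, those with 1 symbol were reduced to the brightest per gene, and the dimmest 25% of 12393 genes were left out. KO and WT were fitted with limma 3.58.1 in R 4.3.3 (lmFit, eBayes, two-sided, Benjamini-Hochberg over 9295 genes), and separately over every probe set. Single values had an exact permutation test. On simulated data, 200 of 9295 genes were changed by 1, 2 or 3 log2 units. Of these, 59.0%, 86.5% and 95.5% were called for KO against WT. The simulated noise was independent between genes, without the variation that real arrays share, so these shares need not hold here. On the arrays themselves Mir155hg, with a difference of -3.55, was not called (limma adjusted p = 0.545). Smaller changes, such as those of the 10 genes, were not simulated.

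Named were all 10 genes and, per pathway list, up to 4 genes with an unadjusted p under 0.05, or the 2 with the smallest p, all other Smads, and the 4 genes most like the one of the 10 with the smallest p. The 10 genes and the lists were chosen with earlier results of these data known. No target site of miR-155 was looked for, since no transcript sequences were used here.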

Additional observations from a re-analysis of the deposited data

How the results depend on the processing

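No gene of the 10 passed the limma test over all genes in any alternative except array weights: with all 6 arrays, with the replicate number as a block, with any 1 array or both replicate 3 arrays left out (chosen after seeing the data), under median centring or a further quantile normalization, under other filters, with the mean of all probe sets, and with trend and robust settings, the count was 0. Array weights gave KO replicate 3 and WT replicate 2 weights of 5.55 and 5.04 and the others 0.27 to 0.58, so that fit mostly compares 2 arrays. It called 3575 genes, 2 of the 10 among them, Smad2 at -0.33 (adjusted p = 0.020) and Ski at 0.38 (adjusted p = 0.024). With weights 4711 genes, 3 of the 10 and 4 of their 19 probe sets had an unadjusted p under 0.05, while Tgfbr1 turned to 0.096, Smad5 to -0.32, Skil to 0.064 and Tgfbr1 probe set 1420894_at to 0.0097.

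With 1 array left out, the count of genes with an unadjusted p under 0.05 was lowest, at 276, without WT replicate 1 and highest, at 1542, without KO replicate 2, and it was 445 without both replicate 3 arrays. That of the 10 was 0 with any 1 array left out and 1, Smad5, with the mean of all probe sets. That of their 19 probe sets was 1 to 2 with any 1 array left out. With 1 array left out Tgfb1 ran from -0.39 to 0.0040, Tgfbr1 from -0.20 to 0.085, Tgfbr2 from -0.0025 to 0.66, Smad5 from -0.16 to 0.27, Smad7 from -0.082 to 0.23 and Skil from -0.39 to 0.063, so their directions were not settled. Skil was at 0.0025 without both replicate 3 arrays and at 0.038 with the mean of its probe sets. The 50% filter removed Smad3 and Smad5.

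Same-numbered arrays of the genotypes share a number and a pattern of sex-linked transcripts. Their deviations correlated at -0.042, 0.64 and 0.40 for numbers 1, 2 and 3, so pairing by number was not assumed. The main fit thus leaves the sex-linked pattern in the spread between mice of 1 genotype. KO replicate 1 correlated best with WT replicate 3 (0.39). With the replicate number as a block, 918 genes and 0 of the 10 had an unadjusted p under 0.05, against 691 genes and 0 of the 10 without it, and 0 genes passed the adjusted test.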
